A study of Mus musculus with 6 samples.

Results

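The genes described here encode adaptors that carry immunoreceptor tyrosine-based activation motifs (ITAMs), or act beside them, and the kinases that bind them. They were Fcer1g, Tyrobp, Hcst, Cd247, Cd3d, Cd3e, Cd3g, Syk and Zap70, taken by gene symbol, 9 of the 24424 genes in the deposited count table and 9 of the 23393 genes in the authors' normalized table. The data are RNA sequencing of 6 libraries (14663542 to 16904312 reads each) from mouse Foxp3+ regulatory T cells, a lineage that limits immune reactions, from sorted spleen and peripheral lymph node cells. The groups were 2 libraries of Bcl11b knockout cells labelled EAE (KO EAE; in this field EAE stands for experimental autoimmune encephalomyelitis), 2 of knockout cells at steady state (KO), and 2 of wild-type cells at steady state (WT). The strain label of all 4 knockout libraries reads Bcl11bF/WT Foxp3YFP-Cre +/-, which names 1 floxed and 1 wild-type allele of Bcl11b, although their genotype is given as KO or KO_EAE. For WT the strain reads Bcl11bF/F and names no Cre, so the floxed allele is common to all groups and Cre expression is not. The Cre is driven from Foxp3, the gene that also marks the sorted cells. The labels give neither age nor number of animals, and do not say whether the replicates were separate animals, so p-values measure only the spread between these libraries, which may be technical. An EAE library of WT cells was not analysed here. In KO EAE against WT, genotype, Cre and the EAE label therefore differ together, and their parts cannot be told apart.

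An ITAM is a short stretch with a pair of tyrosines that Src-family kinases phosphorylate once a receptor binds its ligand, and the paired phosphotyrosines then dock the tandem SH2 domains of Syk or Zap70. In most T cells the CD3 gamma, delta, epsilon and zeta chains carry the ITAMs of the antigen receptor and Zap70 reads them. Innate cells instead pair their activating receptors with Fcer1g (FcR gamma) or Tyrobp (DAP12), which signal through Syk, or with Hcst (DAP10), which carries a motif for phosphoinositide 3-kinase in place of an ITAM. Bcl11b is a zinc finger factor that T cells need for their identity.

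The genes were chosen by their names and roles, with the measured log2 changes and levels of KO against WT already in view. For that comparison the values of these 9 genes are therefore a description without a test. Genes of the pathway and marker lists are given with their tests, but those lists too were chosen with earlier results known, so their KO against WT calls are not independent evidence. The KO EAE libraries did not enter it, but the KO and WT libraries they are set against did. The targeted gene Bcl11b had 404 and 277 CPM in KO EAE, 371 and 369 CPM in KO, and 419 and 424 CPM in WT (CPM, TMM-scaled; log2 change KO against WT -0.19 ± 0.17, edgeR, adjusted p = 0.527), and, on the authors' normalized scale, 6746 and 5211 normalized counts in KO and 10518 and 11371 in WT, where the authors' deposited table lists a log2 change of -0.80. A count over the whole gene need not register a floxed deletion, which was not tested here. The authors' adjusted p for Bcl11b was 7.91e-08 (their DESeq2), so the tables differ on the targeted gene. Why they differ was not tested.

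The proximal promoters are shown for 4 genes, Fcer1g because its level differed most between KO and WT in the normalized table, and Hcst, Cd3e and Zap70 because their levels differed little. RefSeq (GRCm38.p6) held promoters for 8 of the 9 genes, and Tyrobp was the gene not matched. Each line gives the 234 bases that lie 250 to 17 bases before the RefSeq start, read 5′ to 3′ on the strand of the gene. The windows are chr1:171234366-171234599 (minus strand) for Fcer1g, chr7:30419871-30420104 (minus) for Hcst, chr9:45009628-45009861 (minus) for Cd3e and chr1:36761548-36761781 (plus) for Zap70. Capitals mark GAGGAA, the core that PU.1 and related ETS factors bind, and AGGAAG, an overlapping ETS core, on either strand.
Fcer1g: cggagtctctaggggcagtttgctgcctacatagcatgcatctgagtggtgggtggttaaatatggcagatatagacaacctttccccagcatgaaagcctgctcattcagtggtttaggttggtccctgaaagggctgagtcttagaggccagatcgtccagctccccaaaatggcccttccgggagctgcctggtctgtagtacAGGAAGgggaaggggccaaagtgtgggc
Hcst: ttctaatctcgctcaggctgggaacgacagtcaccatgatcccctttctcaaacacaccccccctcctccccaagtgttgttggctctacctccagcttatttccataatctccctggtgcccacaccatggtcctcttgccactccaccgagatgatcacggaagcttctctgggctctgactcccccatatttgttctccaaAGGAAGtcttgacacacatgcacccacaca
Cd3e: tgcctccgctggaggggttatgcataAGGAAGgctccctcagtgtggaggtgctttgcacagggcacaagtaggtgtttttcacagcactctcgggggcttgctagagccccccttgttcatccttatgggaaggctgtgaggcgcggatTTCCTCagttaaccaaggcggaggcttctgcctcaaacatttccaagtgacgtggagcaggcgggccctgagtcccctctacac
Zap70: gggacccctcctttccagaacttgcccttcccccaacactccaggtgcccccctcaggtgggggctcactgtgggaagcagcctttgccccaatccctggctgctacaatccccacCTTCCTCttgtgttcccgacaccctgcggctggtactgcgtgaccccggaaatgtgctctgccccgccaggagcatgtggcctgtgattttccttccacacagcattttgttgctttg
AGGAAG occurred once in each of the 4 windows and in 27.6% of 32851 promoter windows of this length. Among the windows not printed, it occurred once for Cd247 and Cd3d and was absent for Cd3g. GAGGAA occurred once in the Cd3e and the Zap70 window, in Zap70 overlapping AGGAAG, and in 21.7% of all windows. TGTGGT, a Runx core, was in none of the 4 and in 13.3% of all. These matches describe the letters only, and the motifs were chosen after the values were known.

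Fcer1g (chromosome 1, 171229572 to 171234365, minus strand, mm10) encodes the common gamma chain of Fc receptors. In the count table it had 58.2 and 68.9 CPM (reads scaled by TMM to a common library size) in KO EAE libraries, 67.1 and 68.4 CPM in KO libraries, and 11.1 and 11.1 CPM in WT libraries. All 4 knockout libraries lay above both WT libraries, and the KO EAE values enclosed the KO values. The log2 change was 2.52 ± 0.11 for KO EAE against WT (SE; quasi-likelihood test of edgeR, p adjusted by Benjamini-Hochberg over 14548 genes, adjusted p = 0.000119) and -0.09 ± 0.10 for KO EAE against KO (edgeR, adjusted p = 0.765). For KO against WT it was 2.61 ± 0.11, given as a description.

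Tyrobp (chromosome 7, 30413760 to 30417585, plus strand), the DAP12 adaptor of NK and myeloid receptors, had 43.4 and 44.6 CPM in KO EAE, 46.4 and 51.3 CPM in KO, and 9.44 and 9.84 CPM in WT. It too was higher in every knockout library than in either WT library. Its log2 change was 2.19 ± 0.12 for KO EAE against WT (edgeR, adjusted p = 0.000185), -0.15 ± 0.11 for KO EAE against KO (edgeR, adjusted p = 0.650) and 2.34 ± 0.12 for KO against WT. Hcst (chromosome 7, 30417712 to 30419854, minus strand) lies tail to tail with Tyrobp, 126 bases away, and encodes the adaptor of NKG2D. Unlike its neighbour it stayed within 30.7 to 32.1 CPM over all 6 libraries, with 32.1 and 31.7 CPM in KO EAE, 30.8 and 31.9 CPM in KO, and 31.6 and 30.7 CPM in WT. Its log2 changes were 0.03 ± 0.11, 0.02 ± 0.11 and 0.01 ± 0.11 against WT in KO EAE, against KO in KO EAE and against WT in KO (edgeR, adjusted p = 0.866 and 0.945 for KO EAE). Strand use in counting is not given in the sources used here, so reads past the end of either gene cannot be assigned by strand.

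The CD3 chains differed little between groups. Cd247 (chromosome 1, 165788681 to 165877277), the zeta chain with several ITAMs, had 171 and 168 CPM in KO EAE, 152 and 166 CPM in KO, and 169 and 168 CPM in WT. Cd3e (chromosome 9, 44998740 to 45009627), the epsilon chain that pairs with both the gamma and the delta chain, had 150 and 147 CPM in KO EAE, 141 and 150 CPM in KO, and 149 and 146 CPM in WT. The head-to-head neighbours Cd3d and Cd3g, 1354 bases apart on chromosome 9, ranged over 102 to 116 CPM and 107 to 121 CPM across the 6 libraries. The KO values of Cd247 lay below the WT values, and for Cd3d, Cd3e and Cd3g the KO and WT values overlapped. None of the 4 chains was called by edgeR, with log2 changes of -0.08 to 0.04 for KO EAE against WT (adjusted p 0.601 to 0.953) and of 0.01 to 0.10 for KO EAE against KO (adjusted p 0.649 to 0.980). For KO against WT the log2 changes were -0.08 ± 0.07 for Cd247, -0.08 ± 0.08 for Cd3d, -0.02 ± 0.07 for Cd3e and -0.06 ± 0.07 for Cd3g.

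The 2 kinases parted. Syk (chromosome 13, 52583173 to 52648792), the kinase of B cell and innate receptors, had 88.0 and 121 CPM in KO EAE, 161 and 173 CPM in KO, and 14.9 and 13.5 CPM in WT. The 3 groups did not overlap, with KO highest and WT lowest. The log2 change was 2.88 ± 0.17 for KO EAE against WT (edgeR, adjusted p = 0.000277) and 3.55 ± 0.17, as a description, for KO against WT. For KO EAE against KO it was -0.68 ± 0.15, which did not pass the adjustment in edgeR (adjusted p = 0.442), while DESeq2 called it at -0.70 (adjusted p = 0.0125), the lowest of 11 alternatives and the only one past 0.05. Zap70 (chromosome 1, 36761798 to 36782818), the kinase of the T cell receptor, had 202 and 190 CPM in KO EAE, 200 and 208 CPM in KO, and 200 and 191 CPM in WT, with log2 changes of 0.00 ± 0.07 for KO EAE against WT, -0.06 ± 0.07 for KO EAE against KO and 0.06 ± 0.07 for KO against WT (edgeR, adjusted p = 0.981 and 0.782 for the KO EAE comparisons).

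**Figure D1:**
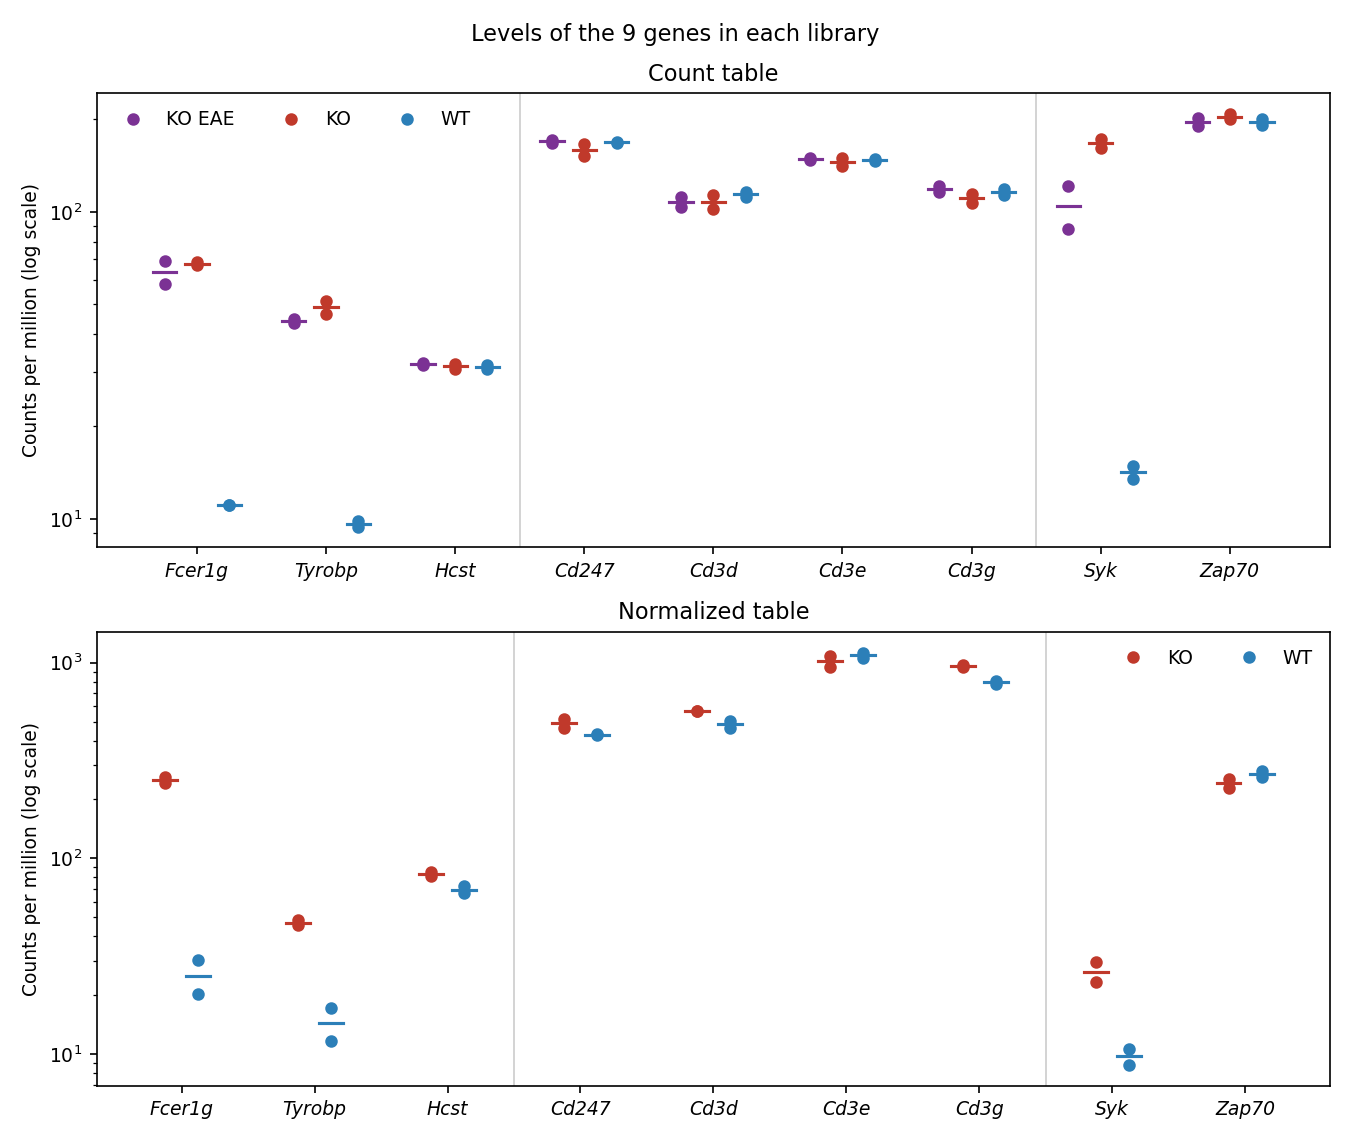
Level of each gene in each library in CPM on a log axis, with points for libraries and short lines for group means, KO EAE, KO and WT from left to right; the upper panel shows the count table and the lower panel the authors' normalized table, which has no KO EAE libraries. Fcer1g, Tyrobp and Syk lie higher in knockout than in WT libraries in both panels, while Hcst, the CD3 chains and Zap70 lie close together.

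All 9 members passed the filter on low counts. In KO EAE against WT, 3 of the 9 (Fcer1g, Tyrobp and Syk) rose and none fell by edgeR, where 9.36% of all genes tested were called and 7.41% were called higher in KO EAE; 3 members had an unadjusted p under 0.05, as had 26.3% of all genes, and DESeq2 called 3. The median log2 change of the members was 0.03, against -0.01 over all genes. In KO EAE against KO edgeR called none of the 9, where 0.0137% of all genes were called; 1 member, Syk, had an unadjusted p under 0.05, as had 9.47% of all genes, and DESeq2 called 1. In KO against WT, the comparison known when the members were chosen, the same 3 members passed the threshold and 12.9% of all genes were called, from which nothing is read here. The KO EAE comparisons share the WT libraries or the KO libraries with it. By non-overlapping values, 4 members (Fcer1g, Tyrobp, Hcst and Syk) lay higher in KO EAE than in WT, where 29.8% of all genes did, and Cd3d lay lower, where 30.7% did. In KO EAE against KO, Cd247 and Cd3g lay higher (16.9% of all genes) and Tyrobp and Syk lower (21.4%). In KO against WT, 4 members (Fcer1g, Tyrobp, Syk and Zap70) lay higher (32.7%) and Cd247 lower (32.5%).

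**Figure D2:**
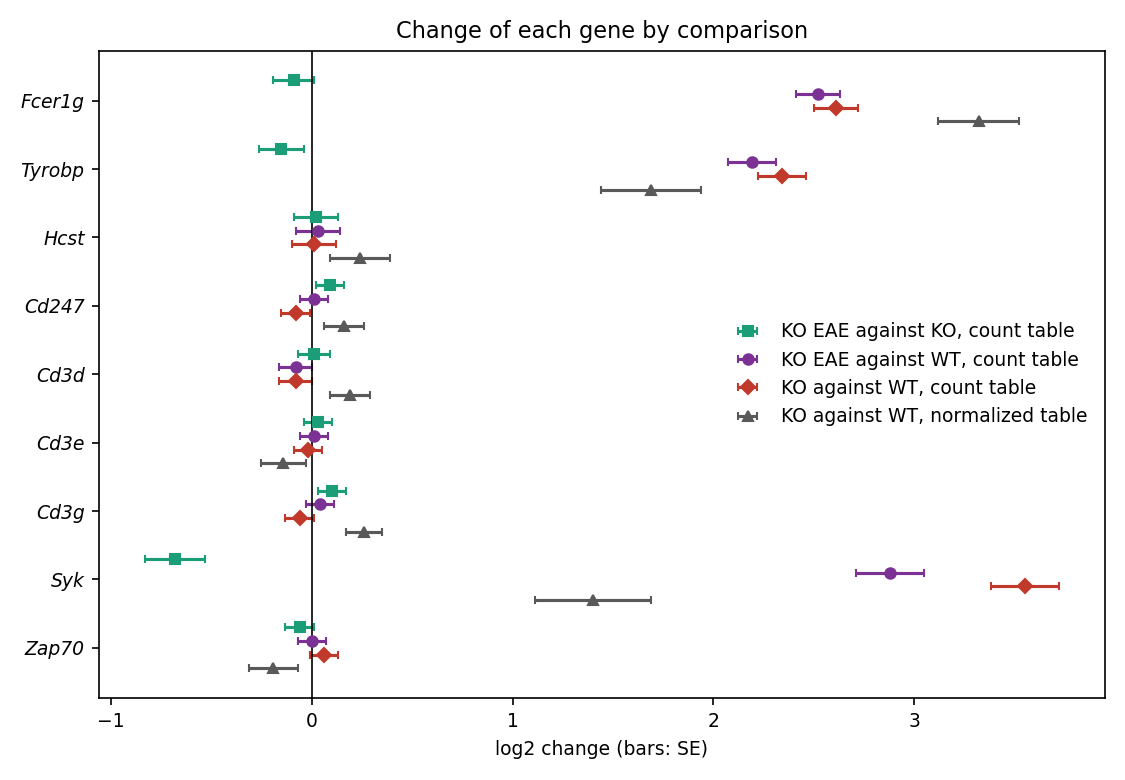
log2 change of each gene with its standard error in the 3 comparisons of the count table (edgeR) and in the normalized table (limma). Fcer1g, Tyrobp and Syk stand at 1.40 to 3.55 in every comparison with WT, Syk at -0.68 in KO EAE against KO, and the other 6 genes between -0.19 and 0.26.

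Levels can be compared between genes only per length, here as CPM per kilobase of coding-transcript exons in GENCODE M21. In WT the order of mean levels was Cd3g at 113 ± 4.17 CPM per kilobase (SD, n = 2), Cd3e at 101 ± 1.31, Zap70 at 86.9 ± 2.74, Cd3d at 70.5 ± 1.46, Hcst at 70.4 ± 1.38, Cd247 at 37.0 ± 0.261, Tyrobp at 17.1 ± 0.512, Fcer1g at 14.8 ± 0.0525 and Syk at 2.35 ± 0.174. In that order Cd3d and Hcst did not differ beyond their spread. In KO libraries Fcer1g at 90.6 ± 1.29 and Tyrobp at 86.6 ± 6.21 CPM per kilobase overlapped Zap70 at 90.9 ± 2.64, below Cd3e at 99.4 ± 4.41 and Cd3g at 108 ± 5.11. Hcst at 71.0 ± 1.69 and Cd3d at 66.7 ± 4.66 overlapped each other, Cd247 stood at 34.9 ± 2.22, and Syk at 27.7 ± 1.47 was still the lowest of the 9. In KO EAE libraries Fcer1g, with 77.8 and 92.2 CPM per kilobase, overlapped both Zap70 (89.9 and 84.4) and Tyrobp (77.0 and 79.1), while Tyrobp lay below Zap70. Syk at 17.3 ± 3.84 CPM per kilobase was lowest there too. The annotation used for counting is not given in the sources used here, so these lengths are approximate.

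Ratios of reads within 1 library need no scaling between libraries. Per 100 reads of Cd247, Fcer1g had 34.1 and 40.9 reads in KO EAE, 44.1 and 41.1 in KO, and 6.57 and 6.60 in WT. The same ratio for Hcst was 18.8 and 18.8 in KO EAE, 20.3 and 19.2 in KO, and 18.6 and 18.3 in WT. Per 100 reads of Zap70, Syk had 43.6 and 63.7 reads in KO EAE, 80.4 and 83.1 in KO, and 7.49 and 7.05 in WT. Within each ratio the knockout libraries were above the WT libraries, by far the least for Hcst. Among the innate adaptors, Tyrobp had 74.6 and 64.7 reads per 100 of Fcer1g in KO EAE, 69.1 and 75.0 in KO, and 84.8 and 89.0 in WT, so the ratio was lower in all 4 knockout libraries.

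The 3 genes nearest to a member were found by the root mean square difference of log2 CPM profiles, each centred on its own mean, over the 6 libraries and among 10960 genes averaging 5 CPM or more. For Fcer1g these were Fcna (ficolin A; difference 0.100), Arhgap19 (0.103) and Slc40a1 (the iron exporter ferroportin; 0.105). Slc40a1 averaged 278 CPM in KO EAE, 311 CPM in KO and 47.4 CPM in WT. For Tyrobp they were Cfp (properdin; 0.0838) and the complement genes C1qb (0.0941) and C1qc (0.0966). For Syk they were Spire1 (0.0352), Fam167a (0.0667) and Timd4, the TIM-4 receptor for phosphatidylserine (0.0680). Spire1 averaged 13.8 CPM in KO EAE, 21.9 CPM in KO and 1.52 CPM in WT. The nearest genes of Hcst were Atp6v1e1, Smarcd2 and Nudt9 (0.00763 to 0.0133) and those of Zap70 were Trip4, Trnau1ap and Rala (0.0132 to 0.0150), all nearly level across libraries. The 3 lists share no gene between Fcer1g, Tyrobp and Syk, but lists of 3 genes are too short to tell profiles apart. Between the members themselves the difference was 0.160 for Fcer1g and Tyrobp, 0.401 for Fcer1g and Syk, and 0.520 for Tyrobp and Syk.

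The sorted cells carried the markers of regulatory T cells in all groups, with Foxp3 at 163 and 149 CPM in KO EAE, 164 and 155 CPM in KO, and 210 and 206 CPM in WT. The 7 regulatory T cell markers summed to 1008 to 1124 CPM in KO EAE, 995 to 1023 CPM in KO and 1731 to 1812 CPM in WT; 5 of 7 fell in KO EAE and 7 of 7 in KO, against WT. Beside these and the following counts, edgeR called 7.41% of all genes higher and 1.95% lower in KO EAE against WT. In KO against WT it called 9.41% higher and 3.46% lower. Markers of other cells were present as well and moved with the groups. The 14 macrophage and dendritic cell markers summed to 1253 to 1511 CPM in KO EAE, 1484 to 1791 CPM in KO and 195 to 202 CPM in WT, and 10 of 14 rose in either comparison with WT, with none at 0 in every library. The 12 NK cell markers summed to 238 to 422 CPM in KO EAE, 303 to 308 CPM in KO and 110 to 121 CPM in WT; 7 of 10 tested rose in either comparison with WT, and Klra4 and Klra8 were at 0 in every library. The 10 B cell markers summed to 75.5 to 152 CPM in KO EAE, 87.0 to 140 CPM in KO and 44.5 to 48.6 CPM in WT (1 of 10 rose), and the 7 basophil and mast cell markers to 30.9 to 53.4 CPM, 27.1 to 31.9 CPM and 9.78 to 10.4 CPM in KO EAE, KO and WT (4 of 7 rose in KO EAE and 3 of 7 in KO, against WT). The 7 platelet markers summed to 33.5 to 86.6 CPM in KO EAE, 35.0 to 55.1 CPM in KO and 17.5 to 21.0 CPM in WT (1 of 7 rose). The 3 measured of 6 gamma delta T cell markers summed to 7.83 to 11.4, 7.20 to 15.1 and 2.62 to 4.95 CPM in KO EAE, KO and WT (none called by edgeR). The 7 measured of 10 T cell markers, with summed levels of 1554 to 1647 CPM in KO EAE, 1491 to 1637 CPM in KO and 1659 to 1663 CPM in WT, had none called in edgeR. The part of these other cells in the values of Fcer1g, Tyrobp and Syk was not tested. In bulk libraries, fewer cells of a type and less RNA per cell cannot be told apart.

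Most receptors that pair with Fcer1g rose against WT. Of 14 listed genes 13 were tested and 9 rose in KO EAE against WT, where 7.41% of all genes were higher. None fell, and the median log2 change was 3.30. In KO against WT 9 of 13 rose, where 9.41% of all genes were higher, with a median of 3.31. Fcgr3, the low-affinity IgG receptor CD16, had 58.6 and 72.7 CPM in KO EAE, 70.5 and 88.7 CPM in KO, and 6.25 and 7.09 CPM in WT (log2 change 3.30 ± 0.18 for KO EAE against WT; edgeR, adjusted p = 0.000205). Fcgr1, the high-affinity IgG receptor, and Fcgr4 changed by 4.21 ± 0.35 and 3.80 ± 0.28 in KO EAE against WT, and by 4.09 ± 0.35 and 3.85 ± 0.28 in KO against WT (edgeR, adjusted p = 0.000967, 0.000631, 0.000848 and 0.000460). Pira2, an activating immunoglobulin-like receptor, changed by 4.19 ± 0.31 and 4.55 ± 0.31, Lilra5 by 4.15 ± 0.35 and 4.86 ± 0.35, and Lilra6 by 5.23 ± 1.04 and 5.43 ± 1.04. The call of Lilra6 was lost in KO EAE against WT without KO EAE replicate 2, KO replicate 2, WT replicate 1 or WT replicate 2, and in KO against WT without KO replicate 2 or WT replicate 1 (highest adjusted p 0.137 and 0.102). Clec4n (Dectin-2) changed by 3.09 ± 0.09 and 3.31 ± 0.09, and Klrb1c (NK1.1) by 1.72 ± 0.18 in KO EAE. The partners of Fcer1g on basophils and mast cells were near the floor of 3 reads: Fcer1a, the IgE-binding chain, had 15 and 17 reads in KO EAE, 7 and 5 in KO, and 1 and 6 in WT, and Ms4a2, the beta chain, had 6 to 32 reads in every library. Ms4a2 is among the 9 that rose in each comparison (1.91 ± 0.43 in KO EAE and 1.83 ± 0.43 in KO; edgeR, adjusted p = 0.0459 and 0.0428). Its call was lost in DESeq2, with no filter, with a replicate block and, in KO EAE against WT, whichever 1 of the 6 libraries was left out (adjusted p up to 0.282), and in KO against WT without any 1 of the KO and WT libraries (highest 0.258). Lilra and Pira genes are close relatives that can share reads, so their split is uncertain.

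Of 12 receptors that signal through Tyrobp or Hcst, 9 were tested and 5 rose in KO EAE against WT and in KO against WT. None fell, and median log2 changes were 2.78 and 2.57. Over all genes, 7.41% and 9.41% were higher in these comparisons. Klrk1, the NKG2D receptor that uses both adaptors in mice, had 42.2 and 101 CPM in KO EAE, 47.2 and 62.0 CPM in KO, and 9.87 and 11.1 CPM in WT. It changed by 2.78 ± 0.42 in KO EAE against WT and 2.38 ± 0.42 in KO against WT (edgeR, adjusted p = 0.0115 and 0.0158), while Hcst was not called. Both Klrk1 calls were lost without WT replicate 1 or WT replicate 2, and that of KO against WT also without KO replicate 1 or KO replicate 2 (highest adjusted p 0.0802 and 0.100). Klrd1, the CD94 chain, had 25.2 and 32.8 CPM in KO EAE, 23.8 and 25.6 CPM in KO, and 4.69 and 6.24 CPM in WT, and changed by 2.41 ± 0.22 and 2.17 ± 0.22 (edgeR, adjusted p = 0.00156 and 0.00179). The myeloid receptors Sirpb1a and Pilrb1 changed by 4.32 ± 0.39 and 4.03 ± 0.18 in KO EAE against WT and by 4.35 ± 0.39 and 4.46 ± 0.18 in KO against WT. Klrc2 (NKG2C) changed by 2.10 ± 0.40 in KO EAE and 2.57 ± 0.40 in KO against WT (edgeR, adjusted p = 0.0261 and 0.0101). The first call was lost without KO EAE replicate 2 or any 1 of the KO and WT libraries and with only the 4 libraries compared, and the second without KO replicate 2 or WT replicate 1 (highest adjusted p 0.158 and 0.0734 with 1 library left out). Klra4 and Klra8, the activating receptors Ly49D and Ly49H, had no read in any library, which allows up to 0.177 to 0.205 CPM for counting error alone.

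Kinases and adaptors used with Syk in B and myeloid cells rose in part. Of 16 such genes 8 rose in KO EAE against WT and 9 in KO against WT, where 7.41% and 9.41% of all genes were higher. None fell, and median log2 changes were 1.64 and 2.74. Blnk, the adaptor phosphorylated by Syk, had 14.2 and 21.2 CPM in KO EAE, 26.7 and 29.1 CPM in KO, and 1.25 and 0.917 CPM in WT. Its levels in all 4 knockout libraries lay above both WT libraries. In KO EAE and in KO against WT, Blnk changed by 4.02 ± 0.30 and 4.68 ± 0.31, Btk by 3.26 ± 0.37 and 3.77 ± 0.37, Plcg2 by 3.54 ± 0.40 and 3.69 ± 0.40, and Clec7a (Dectin-1), whose cytoplasmic tail holds a single ITAM-like tyrosine motif, by 4.26 ± 0.45 and 3.81 ± 0.45. The ITAM chains of the B cell receptor were not called: Cd79b had 16.3 and 22.7 CPM in KO EAE, 21.4 and 28.1 CPM in KO, and 24.9 and 19.3 CPM in WT (edgeR, adjusted p = 0.682 and 0.699).

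Among 11 genes for inhibitory receptors, which recruit phosphatases, and for those phosphatases, 7 rose in both comparisons with WT. None fell, and median log2 changes were 2.55 in KO EAE and 2.89 in KO. The shares of all genes called higher were 7.41% and 9.41%. Pirb changed by 4.18 ± 0.24 in KO EAE and 4.76 ± 0.25 in KO (edgeR, adjusted p = 0.000257 and 0.000121), Clec4a2 by 4.07 ± 0.33 and 4.29 ± 0.34, Cd300a by 3.65 ± 0.14 and 4.06 ± 0.14, Sirpa by 3.44 ± 0.13 and 3.69 ± 0.13 and Lair1 by 2.55 ± 0.19 and 2.89 ± 0.19, each against WT. Of the phosphatases, Ptpn11 (SHP-2) rose, with 285 and 257 CPM in KO EAE, 270 and 257 CPM in KO, and 196 and 195 CPM in WT (log2 change 0.47 ± 0.08 and 0.43 ± 0.08; edgeR, adjusted p = 0.0199 and 0.0214). Its call in KO EAE was lost without KO replicate 1, WT replicate 1 or WT replicate 2, and that in KO without any 1 of the KO and WT libraries (highest adjusted p 0.144 and 0.153). Ptpn6 (SHP-1) had 180 and 174 CPM in KO EAE, 183 and 193 CPM in KO, and 168 and 179 CPM in WT (edgeR, adjusted p = 0.827 and 0.345), and Inpp5d (SHIP-1) ranged over 263 to 286 CPM.

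Of 28 genes of T cell receptor signalling, 1 rose and 1 fell in KO EAE against WT, where 7.41% of all genes were higher and 1.95% lower. In KO against WT 1 rose and 2 fell, where 9.41% of all genes were higher and 3.46% lower. Nothing is read from these counts. Median log2 changes were -0.08 and -0.11. Themis, a regulator of receptor signalling in thymocytes, had 220 and 214 CPM in KO EAE, 192 and 218 CPM in KO, and 122 and 121 CPM in WT, changing by 0.83 ± 0.08 and 0.75 ± 0.08 (edgeR, adjusted p = 0.00226 and 0.00259). Sh2d2a, a T cell adaptor, changed by -0.39 ± 0.09 and -0.37 ± 0.09 (edgeR, adjusted p = 0.0465 and 0.0436). The ubiquitin ligase gene Cbl changed by -0.47 ± 0.10 in KO against WT (edgeR, adjusted p = 0.0284). The call of Sh2d2a in KO EAE against WT was lost without KO EAE replicate 2 or any 1 of the KO and WT libraries (highest adjusted p 0.226), and those of Sh2d2a and Cbl in KO against WT without any 1 of the KO and WT libraries (highest 0.246 and 0.194). Lck, which phosphorylates the CD3 ITAMs, had 232 and 223 CPM in KO EAE, 224 and 240 CPM in KO, and 238 and 225 CPM in WT. None of the 77 tested genes of these 5 lists was called in KO EAE against KO by edgeR or by DESeq2. Of all genes, edgeR called 0.0137% there. In edgeR 10 of the 77 had an unadjusted p under 0.05, as had 9.47% of all genes.

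**Figure D3:**
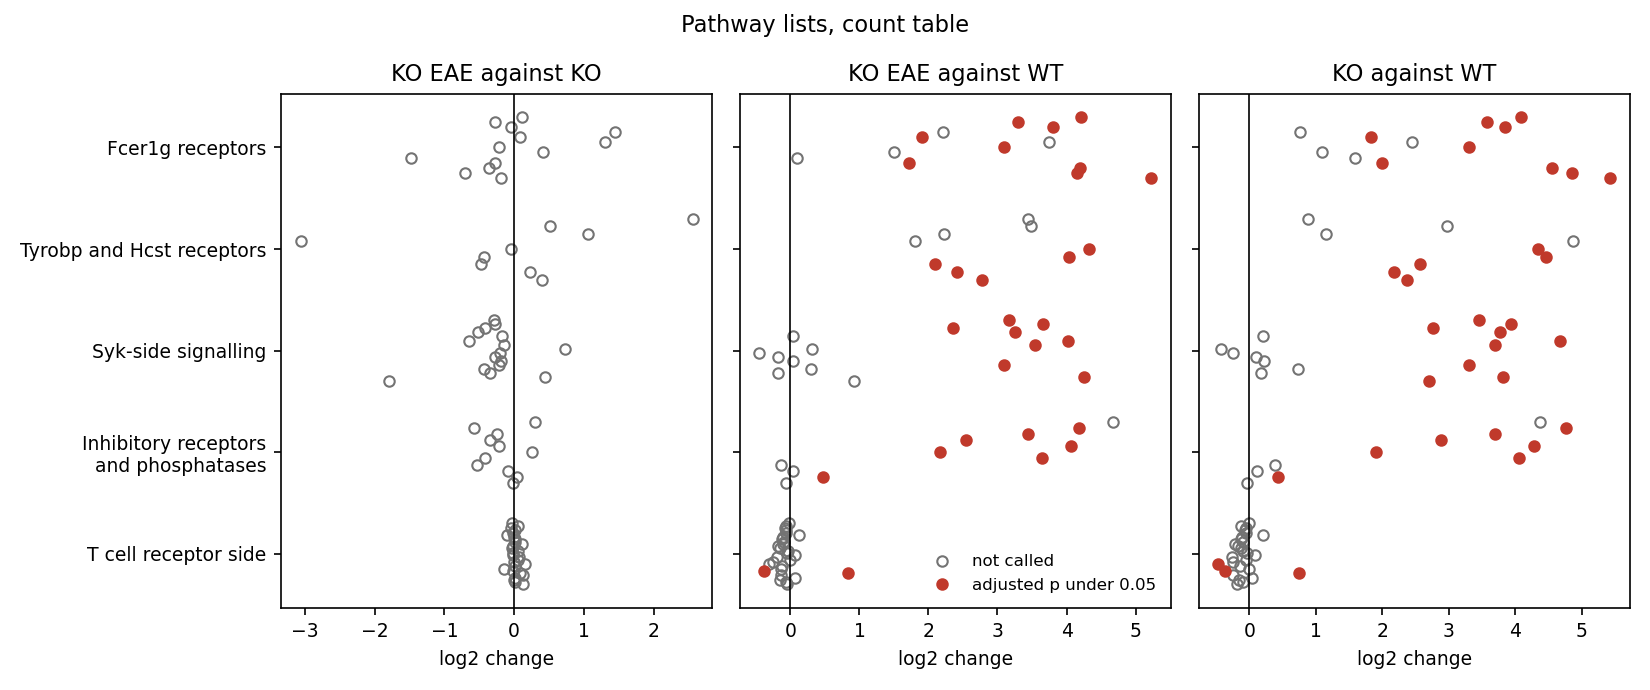
log2 changes of the tested genes of 5 pathway lists in the count table, 1 panel per comparison, filled points for adjusted p under 0.05 in edgeR. Points of the receptor, Syk-side and inhibitory lists reach 5.23 in KO EAE against WT and 5.43 in KO against WT, while the T cell receptor genes lie between -0.47 and 0.83 and no gene is called in KO EAE against KO.

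The authors' normalized table holds other values under the KO and WT library names, and it was normalized separately, so tests stay within the table and any comparison of sizes between the tables is a description. The values of the members are again a description, and counts of members called stand only beside the share of all genes called. Fcer1g had 5097 and 5388 normalized counts in KO, against 434 and 632 in WT, a log2 change of 3.32 ± 0.20 on the log2(value + 1) scale. Tyrobp had 1014 and 942 normalized counts in KO and 252 and 362 in WT (1.69 ± 0.25), and Syk had 488 and 610 in KO and 229 and 184 in WT (1.40 ± 0.29). All 3 were thus higher in KO here too, with the change of Fcer1g above and those of Tyrobp and Syk below their sizes in the count table. Zap70 had 5309 and 4760 normalized counts in KO and 6019 and 5459 in WT (-0.19 ± 0.12), and Cd3e had 22676 and 19518 in KO and 24153 and 22182 in WT (-0.14 ± 0.11). Cd3g had 20463 and 19654 in KO and 17368 and 16247 in WT (0.26 ± 0.09). Hcst, Cd247 and Cd3d changed by 0.24 ± 0.15, 0.16 ± 0.10 and 0.19 ± 0.10. The KO values lay above the WT values for 7 of the 9 genes and below them for Zap70; over all genes 23.3% lay above and 22.4% below without overlap. Of the 9, limma called 1, Fcer1g, where 0.181% of all genes were called, and edgeR on the recovered reads called 1, where 0.0979% were called. Of the 9, 3 pass an adjusted p of 0.05 in the authors' deposited table (their DESeq2), Fcer1g, Tyrobp and Syk, where 3.36% of all genes do. Nothing is read from these counts. The log2 changes in the authors' deposited table are 2.79 for Fcer1g, 1.15 for Tyrobp, 0.84 for Syk and 0.21 for Hcst, and between -0.17 and 0.24 for Zap70 and the CD3 chains. For Fcer1g, Tyrobp and Syk they are smaller than the limma changes above, so the 2 are not like measures of size. Why they differ in size was not tested.

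Within the normalized table the 3 higher genes kept other proportions to each other than in the count table. Tyrobp had 19.9 and 17.5 reads per 100 of Fcer1g in KO and 58.1 and 57.2 in WT, so the ratio was lower in both KO libraries. Per 100 reads of Cd247, Fcer1g had 52.6 and 50.6 in KO and 4.72 and 7.03 in WT. Per 100 reads of Adgre1, which encodes the macrophage antigen F4/80, Fcer1g had 292 and 339 reads in KO and 136 and 71.5 in WT. In the count table that ratio was 32.3 and 33.2 in KO EAE, 31.5 and 26.1 in KO, and 49.7 and 59.2 in WT, lower in all knockout libraries. Per 100 reads of Itgax, which encodes the dendritic cell antigen CD11c, Fcer1g had 2668 and 4941 reads in KO and 3410 and 1957 in WT in the normalized table, so the groups overlapped. Itgax itself had only 10 and 30 recovered reads in WT, against 231 and 127 in KO, so the WT ratios are imprecise. In the count table that ratio was 98.3 and 97.9 in KO EAE, 72.9 and 55.7 in KO, and 222 and 176 in WT. Per kilobase, Fcer1g stood at 337 ± 16.5 CPM in KO (SD, n = 2), overlapping Cd3d at 349 ± 0.220 CPM, and at 33.7 ± 9.50 CPM in WT.

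**Figure D4:**
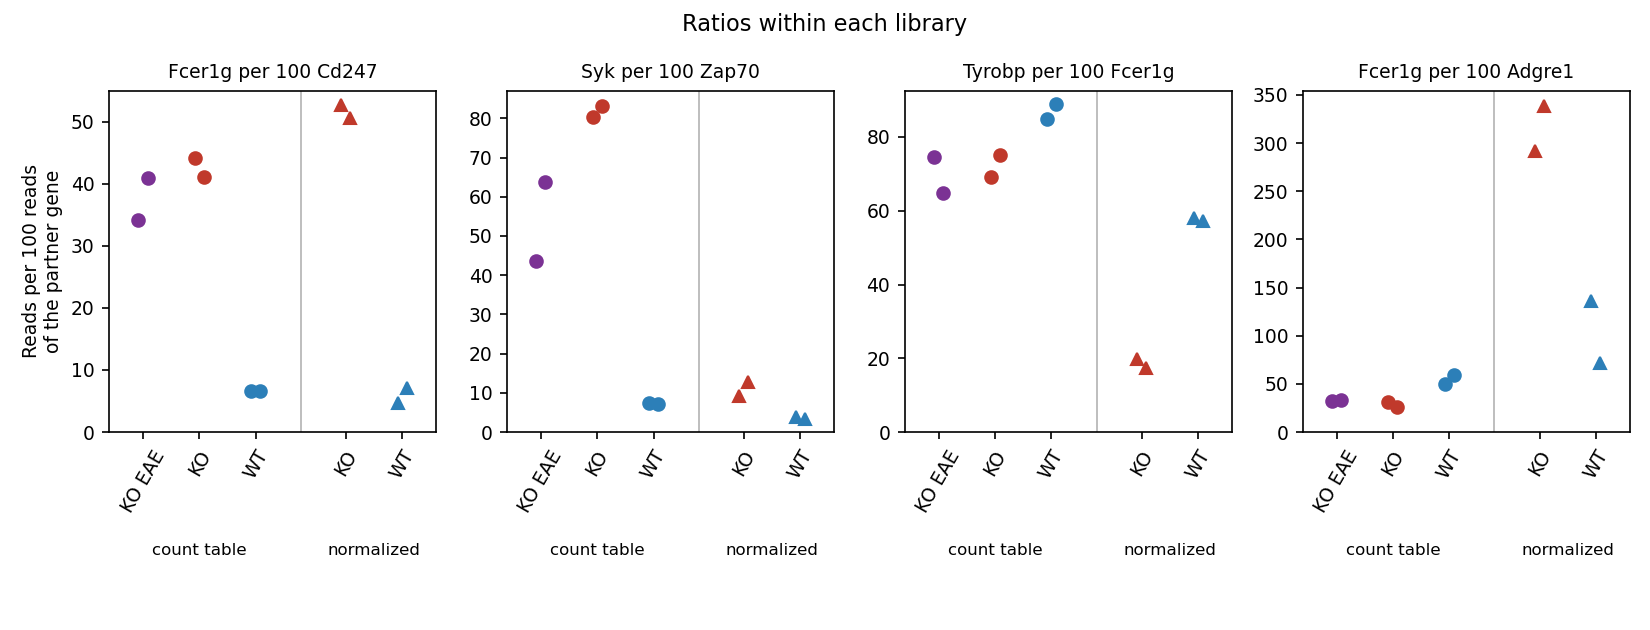
Reads of 1 gene per 100 reads of a partner gene in each library, for KO EAE, KO and WT in the count table (circles) and KO and WT in the normalized table (triangles). Fcer1g per 100 Adgre1 is 26.1 to 33.2 in knockout libraries of the count table and 292 to 339 in KO libraries of the normalized table.

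Of the 7 regulatory T cell markers, limma called 1 lower in KO in the normalized table, Lrrc32, where 0.181% of all genes were called in either direction. The median log2 change of the 7 was -0.65, and Foxp3 changed by -0.07 ± 0.14 (limma, adjusted p = 0.856). The authors' deposited table has 5 of the 7 lower at an adjusted p under 0.05, and Foxp3 is not among them. Of all genes there, 3.36% pass that threshold in either direction. Markers of other cells also differed between KO and WT in the normalized table. Myeloid markers summed to 906 and 752 CPM in KO and 244 and 430 CPM in WT, with none of 14 called by limma. For 11 of the 14 both KO libraries lay above both WT libraries, as for 23.3% of all genes. The authors' deposited table gives an adjusted p for 12 of the 14 myeloid markers. It lists 5 as higher at that threshold, Csf1r, C1qa, Cd68, Adgre1 and Cd14 (log2 changes 0.69 to 1.18). Adgre1 had 83.2 and 76.9 CPM in KO and 14.9 and 42.3 CPM in WT. NK markers summed to 240 and 201 CPM in KO and 94.4 and 138 CPM in WT, and 1 of 9 tested, Klrd1, rose by limma. Of the 8 with an adjusted p in the authors' deposited table, Klrd1, Nkg7 and Klrk1 are higher at that threshold. Of 7 basophil and mast cell markers, Fcer1a, Ms4a2, Mcpt8 and Prss34 had no read in any of the 4 libraries. Of the other 3, Kit had 424 and 644 recovered reads in KO and 48 and 141 in WT (limma log2 change 2.18 ± 0.49, adjusted p = 0.156; adjusted p = 0.00402 in the authors' deposited table, by DESeq2), Hdc had 36 and 57 in KO and 29 and 30 in WT, and Cpa3 had 35 and 45 in KO and 18 and 16 in WT. Of the Fcer1g receptors 7 were tested and 1 rose by limma, where 0.140% of all genes did, Fcgr3, with 918 and 793 normalized counts in KO and 164 and 229 in WT (log2 change 2.13 ± 0.27, adjusted p = 0.0486). Of the Tyrobp and Hcst receptors 5 were tested and 1 rose, Klrd1, with 17.9 and 24.8 CPM in KO and 2.07 and 2.16 CPM in WT (3.26 ± 0.40, limma, adjusted p = 0.0486). The call of Fcgr3 was lost without KO replicate 1, KO replicate 2 or WT replicate 1, and that of Klrd1 without any 1 library (limma, highest adjusted p 0.888 for each). Both calls were also lost by limma with no filter on low values. By edgeR on recovered reads Klrd1 was called and Fcgr3 was not, where 0.0979% of all genes were called. None of the 28 T cell receptor, 15 tested Syk-side or 11 inhibitory genes was called by limma or by edgeR on recovered reads. By limma 12 of the 28, 13 of the 15 and 9 of the 11 had a log2 change above 0, with medians of -0.06, 0.78 and 1.08. Some genes that rose in the count table changed little here, Btk by 0.07 ± 0.55, Ptpn11 by 0.10 ± 0.15 and the Fcer1g receptor Fcgr4 by 0.24 ± 0.46. Why the tables differ on them was not tested. In the authors' deposited table, 2 of the 28 T cell receptor genes (Themis higher, Sla lower) pass an adjusted p of 0.05, where 3.36% of all genes do. Among genes with an adjusted p there, so do 3 of 13 Syk-side genes (all higher) and 2 of 10 inhibitory genes (Pirb and Cd300a, both higher). So do 2 of 5 Fcer1g receptors (Fcgr3 and Clec4n) and 2 of 4 Tyrobp and Hcst receptors (Klrd1 and Klrk1), all 4 higher. The part of these cells in the higher Fcer1g was not tested.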

How the data were processed

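RNA of sorted regulatory T cells was sequenced on a NextSeq500 from NEBNext Ultra II libraries, per the labels' protocols. Per the submitters' processing notes, the tools were HISAT2, HTSeq and DESeq2 and the build mm10; no version, gene annotation or strand setting is stated. The authors deposited raw counts per gene, in whole reads, for 6 libraries (14663542 to 16904312 reads each; 3 reads are 0.177 to 0.205 CPM, counting error only). A normalized signal for 4 libraries, counts divided by size factors, was deposited too. The authors' deposited comparison holds a mean signal, log2 fold changes, a test score and p-values, per the file headers. Of the normalized values above 0, 100% were whole multiples of the value of 1 read (tolerance 0.02 reads), so whole reads were recovered. Rows named by numbers or dates were left out (25 and 27).

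Counts were fitted with edgeR 4.0.16 in R 4.3.3 (filterByExpr with minimum count 10 and total 15, TMM, quasi-likelihood test, all 6 libraries, 1 coefficient per group) and adjusted over 14548 genes at 0.05. The SE is the size of the log2 change over the square root of F. Normalized values were fitted with limma 3.58.1 on log2(value + 1), mean of at least 10, over 12149 genes. Scripts were tested on simulated data. Replicates differed by more than sampling noise (chi-square per degree of freedom 11.7 to 24.7). Members, lists and tests were chosen with earlier results of these data known. All 9 members were named; from each list, called genes with at least 5 CPM, at most 5 in each direction, and other list genes chosen after their values were seen. A gene that this rule names is not reported here. By synonym, 3 list genes were matched in the normalized values. Alternatives included DESeq2 1.42.0. Positions are from GENCODE M21 (mm10), 1-based.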

Additional observations from a re-analysis of the deposited data

How the results depend on the processing

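Each comparison in the count table had 11 alternatives (size factors, no filter, DESeq2, fewer libraries in the fit, a replicate block and 6 fits that each left out 1 library). In KO EAE against WT the member calls stood at 3 under each alternative that kept all libraries of the 2 groups compared. In KO EAE against KO the count was 0 there except in DESeq2, which called 1 (Syk). The KO against WT count also stood at 3. The members were chosen with KO against WT known, so nothing is read from their counts in that comparison, in either table. Pathway genes called numbered 31 in KO EAE against WT (25 to 39 with 1 library left out) and 33 in KO against WT (24 to 38). In the normalized table limma called 1 member, 2 with a pseudocount of 8 and 0 to 2 with 1 library left out (0 without KO replicate 1 or KO replicate 2, 2 without WT replicate 2). A replicate block gave 0, 3 and 3 members in KO EAE against KO, KO EAE against WT and KO against WT, and 2 in the normalized table (Fcer1g and Tyrobp); it gave 31 and 32 pathway genes. The replicate numbers share only a number: deviations of same-numbered libraries correlated at 0.197, -0.0861 and 0.0124 between groups. Counts over all genes moved more: 1362 in KO EAE against WT was 603 (without WT replicate 1) to 3762 (without KO EAE replicate 1), 1873 in KO against WT was 846 (without KO replicate 1) to 3087 (without KO EAE replicate 1; 3121 with only the 4 libraries compared), 2 in KO EAE against KO was 0 to 313 (313 without KO EAE replicate 1, 8 without KO EAE replicate 2, 167 in DESeq2), and 22 in the normalized table was 0 to 71 with 1 library left out, 1 without a filter and 90 with the block. The cause was not tested. With 2 libraries a group, small changes of the CD3 chains could not be resolved.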

Other observations

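Reads of T cell genes took different shares in the tables. Cd3e had 1082 and 945 CPM in KO and 1124 and 1061 CPM in WT in the normalized table, against 141 and 150 CPM in KO and 149 and 146 CPM in WT in the count table, while Zap70 had 253 and 230 CPM in KO and 280 and 261 CPM in WT in the normalized table and 190 to 208 CPM over the count table. Lck had 1760 and 1760 CPM in KO and 1811 and 1905 CPM in WT in the normalized table, against 223 to 240 CPM in the count table. Hcst, at 81.3 and 85.6 CPM in KO and 71.9 and 66.5 CPM in WT, was also higher there than in the count table, and Syk, at 23.3 and 29.5 CPM in KO, was lower than its 161 and 173 CPM for KO in the count table. The tables were normalized separately, and why libraries of the same name differ was not tested.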
